A study of Mus musculus with 2 samples.

Results

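The genes described here are 10 genes of gp130 cytokine signalling, measured in uterine stromal cells of pregnant mice. They are the ligands Lif, Il6 and Il11, the receptor chains Lifr, Il6st and Il11ra1, the kinases Jak1 and Jak2, the transcription factor Stat3 and the feedback inhibitor Socs3. The genes were chosen by name, with earlier results of these data known. Every probe set was taken whose platform annotation gives exactly 1 gene symbol that is among these names. Of the 10 genes, 9 had such a probe set, 21 probe sets in all. The array has 20380 probe sets with exactly 1 gene symbol, for 12393 genes. Il11ra1, the chain that binds IL-11, was not analysed here.

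The arrays were of the type Mouse Genome 430A 2.0 by Affymetrix, with 1 colour each, and there were 2 of them, 1 for a conditional knockout and 1 for floxed controls. Stromal cells of 3 animals per genotype were pooled after the uterine horns had been digested with enzymes on day 5 of pregnancy, counted from the vaginal plug as day 1. The knockout titles say Hif1 cKO and the genotype field says Hif2 alpha-null, while the control titles say Hif1 flox and the genotype field Hif2 alpha-intact. The breeding note names Hif1 floxed mice, PRcre, and ablation of Rac1, so the first array is called knockout-labelled throughout. PRcre is Cre recombinase expressed under control of the progesterone receptor gene, which is active in uterine epithelium and muscle as well as in stroma. Strain and age are not given in the sources used here.

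None of the labelled target genes was at background on the knockout-labelled array at its brightest probe set. Hif1a had a signal of 1544 on the knockout-labelled array and 721 on the control array at its brightest probe set. Its next probe sets read 297 and 114, and 38.7 and 27.0, and its dimmest read 5.00 and 0.688, at background on both arrays. Epas1 (which encodes HIF2 alpha) read 78.1 and 59.4, and Rac1 757 and 1038, with 332 and 664 at its next probe set. The dimmest Rac1 probe set read 4.23 and 0.213, also at background on both arrays. Whether these probes lie in the deleted exons was not analysed here, so they do not check the genotype. With 1 array per group and pooled animals nothing is replicated and nothing was tested, and each difference below is one between 2 arrays. The number of arrays limits the precision.

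All cytokines of this family signal through gp130, the receptor chain encoded by Il6st. LIF binds the LIF receptor, which pairs with gp130, whereas IL-6 and IL-11 bind their own alpha chains and then bring gp130 chains together. JAK kinases bound to gp130 phosphorylate STAT3, which enters the nucleus and switches on target genes, among them Socs3, whose product binds gp130 and the JAKs and ends the signal. In the mouse uterus, LIF from the glands is required for the embryo to implant, IL-11 signalling is required for the stroma to decidualize, and STAT3 is needed for implantation.

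The proximal promoters of the 4 genes whose brightest probe sets differed at least 2-fold between the arrays are shown because they are the regulatory sequences nearest to the differences reported here. Each is the 250 bases before the RefSeq start site on GRCm38.p6, read 5′ to 3′ on the gene's own strand. Capitals mark matches, on either strand, to a STAT site (TTCNNNGAA), an NF-kB site (GGGANTTTC), a C/EBP site (TTGNGCAA) or the core of a hypoxia response element (ACGTG or GCGTG). Socs3 is on chr11:117969367-117969616 (minus strand), Il6 on chr5:30012864-30013113 (plus strand), Jak2 on chr19:29251553-29251802 (plus strand) and Jak1 on chr4:101265224-101265473 (minus strand).
Socs3: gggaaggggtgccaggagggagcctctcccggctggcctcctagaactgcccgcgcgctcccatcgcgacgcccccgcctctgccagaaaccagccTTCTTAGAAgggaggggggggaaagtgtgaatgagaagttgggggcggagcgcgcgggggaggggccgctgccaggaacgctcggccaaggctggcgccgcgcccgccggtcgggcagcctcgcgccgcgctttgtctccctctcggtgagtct
Il6: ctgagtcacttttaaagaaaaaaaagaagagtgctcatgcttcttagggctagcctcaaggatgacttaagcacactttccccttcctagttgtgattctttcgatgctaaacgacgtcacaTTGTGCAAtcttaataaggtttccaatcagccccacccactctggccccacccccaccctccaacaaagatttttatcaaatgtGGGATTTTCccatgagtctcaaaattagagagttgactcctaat
Jak2: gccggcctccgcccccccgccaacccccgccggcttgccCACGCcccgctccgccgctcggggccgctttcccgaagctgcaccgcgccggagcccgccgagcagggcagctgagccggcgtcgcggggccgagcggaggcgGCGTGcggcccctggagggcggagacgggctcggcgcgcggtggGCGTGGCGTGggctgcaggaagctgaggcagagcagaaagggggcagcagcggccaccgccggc
Jak1: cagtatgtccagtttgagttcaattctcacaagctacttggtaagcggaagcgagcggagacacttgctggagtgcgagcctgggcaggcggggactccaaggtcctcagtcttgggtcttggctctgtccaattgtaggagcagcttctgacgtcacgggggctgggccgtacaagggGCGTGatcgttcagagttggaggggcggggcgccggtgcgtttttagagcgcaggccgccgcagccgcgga

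Socs3 held the only STAT match among the promoters of the 10 genes, TTCTTAGAA, with its first base 154 bases before the start, where 7.02% of 32851 RefSeq promoter windows of this length hold one. Il6 held the only NF-kB match, 44 bases before the start (0.941% of windows), and the only C/EBP match, 128 bases before the start (2.61% of windows). Jak2 held 4 matches to the hypoxia core, and Jak1, Lif and Lifr held 1 each, but a motif of this length is in 38.6% of all windows. The matches of different motifs did not overlap. A match is a description of the letters, and binding was not measured.

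Signals are MAS5 intensities as deposited, in which each array was already scaled to the same trimmed mean (150.1 on each). Values were raised to a floor of 19.7, the 40th percentile of both arrays pooled, before ratios were taken, since signals that dim can be noise. A log2 ratio is knockout-labelled minus control, so 1 is a doubling. The error given with a ratio is ± 0.64, an SD estimated from how far 2 probe sets of 1 gene differ (2660 genes). This SD takes out the mean difference between the brighter and the dimmer probe set, and is 0.7 where that difference is kept. The error also leaves out the spread between animals, pools and arrays.

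Both measured ligands were brighter on the knockout-labelled array. Il6 encodes interleukin 6, an inflammatory cytokine made by stromal and immune cells, and its single probe set read 159.7 on the knockout-labelled array and 73.8 on the control array. Its log2 ratio was 1.11 ± 0.64, a 2.16-fold higher signal, and 346 of the 7866 genes above the floor on both arrays had a higher ratio. Lif, the implantation cytokine, read 51.6 on the knockout-labelled array and 27.8 on the control array at 1 probe set, a log2 ratio of 0.89 ± 0.64 (1.86-fold), which did not reach 2-fold. The other Lif probe set read 0.432 and 5.91, below the floor on both arrays, and gives no direction. Il11, a ligand of the decidualizing stroma, read 19.6 on the knockout-labelled array, just under the floor, and 10.5 on the control array, so no ratio is given. The higher Lif signal thus rests on 1 dim probe set, and in pooled tissue RNA more cells of a type and more RNA per cell cannot be told apart.

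**Figure D1:**
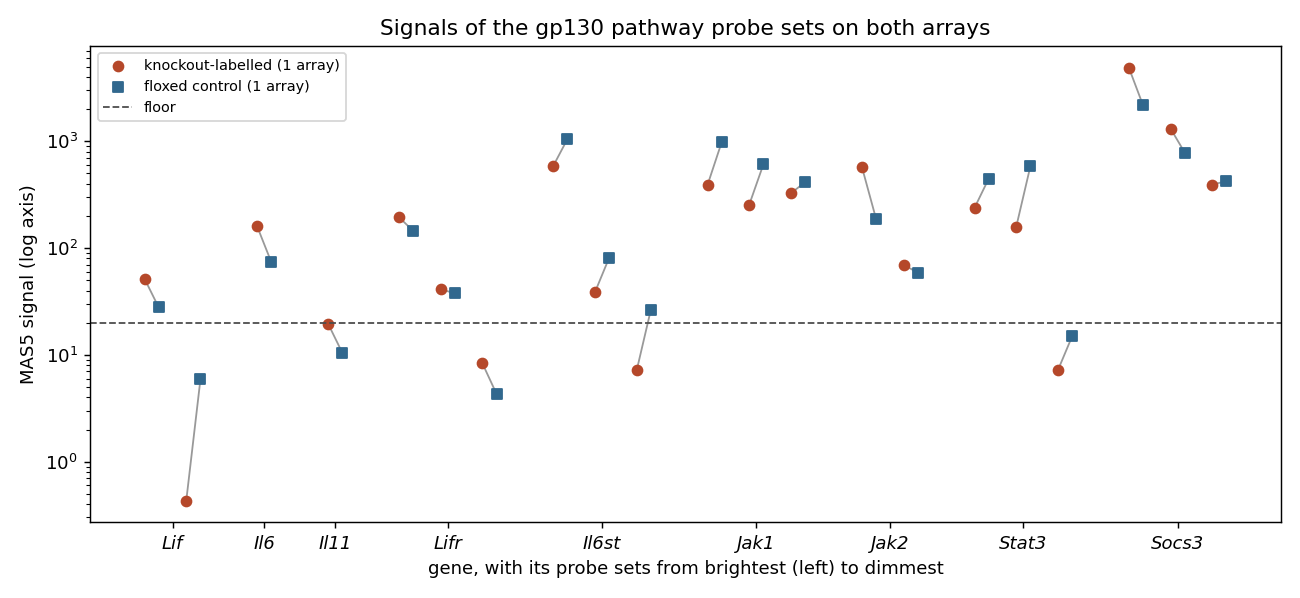
MAS5 signal (log axis) of each of the 21 probe sets, with the knockout-labelled array (circles, left) joined to the floxed control (squares, right). All 3 probe sets of Il6st and of Jak1 slope up towards the control, while Il6 (159.7 and 73.8) and the brightest probe set of Jak2 (576 and 188) slope down, and the dashed line is the floor of 19.7.

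Of the 2 measured receptor chains, Il6st was lower on the knockout-labelled array and Lifr differed by less than the error. The brightest probe set of Il6st, the shared gp130 chain, read 589 on the knockout-labelled array and 1051 on the control array, a log2 ratio of -0.83 ± 0.64. Its next probe set read 38.7 and 81.2, a log2 ratio of -1.07, and the dimmest read 7.16 on the knockout-labelled array, under the floor, and 26.5 on the control array, at least 1.34-fold lower. Il6st was therefore lower at all 3 of its probe sets, with a size near 2-fold. Lifr, the chain that gives gp130 its specificity for LIF, read 195 on the knockout-labelled array and 145 on the control array, a log2 ratio of 0.43 ± 0.64. Its second probe set read 41.4 and 37.6 (0.14), and the third was below the floor on both arrays. Both Lifr ratios were smaller than the disagreement between probe sets, so no difference in Lifr could be told from that error. The Lifr ratio exceeded that of its partner Il6st by 1.26 on the log2 scale, a gap that does not change when either array is multiplied by a constant.

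The 2 kinases went opposite ways at their brightest probe sets. Jak1, the kinase on which gp130 signalling chiefly depends, read 392 on the knockout-labelled array and 987 on the control array, a log2 ratio of -1.33 ± 0.64 (2.52-fold lower). Its other probe sets read 256 and 612 (-1.26) and 327 and 415 (-0.34). Jak1 was thus lower at all 3 probe sets, at least 2-fold at 2 of them, and 506 of 7866 genes had a lower ratio than its brightest. Jak2, which also serves prolactin and growth hormone receptors, read 576 on the knockout-labelled array and 188 on the control array, a log2 ratio of 1.62 ± 0.64 (3.07-fold higher), which 81 of 7866 genes exceeded. Its dimmer probe set read 69.7 and 59.0 and gave only 0.24. The 2 probe sets of Jak2 were 1.38 apart, a gap that 17.1% of 2660 genes reached or passed, and the dimmer one lay within the error, so the higher Jak2 signal rests on 1 probe set. Between the brightest probe sets, the ratio of Jak2 lay 2.95 above that of Jak1 on the log2 scale. The size of this gap rests on the same Jak2 probe set, and the dimmer one (0.24) lay closer to all 3 Jak1 ratios.

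Stat3, the transcription factor that gp130 activates, was lower on the knockout-labelled array at both of its measured probe sets. One read 238 on the knockout-labelled array and 447 on the control array, a log2 ratio of -0.91 ± 0.64, and the other 158 and 585, a log2 ratio of -1.89 (3.70-fold lower). The third read 7.19 and 14.9, under the floor. The 2 measured probe sets differed by 0.98, and 31.7% of genes with a pair differed by at least as much, so Stat3 is past 2-fold or short of it according to the probe set. These are transcript signals, and phosphorylated STAT3, the active form, was not measured.

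Socs3, the feedback inhibitor, was the member on which probe sets did not settle a direction. Its brightest probe set read 4908 on the knockout-labelled array and 2182 on the control array, a log2 ratio of 1.17 ± 0.64, and the next read 1319 and 786 (0.75). Both have the suffix _x_at, which marks probes that can match other transcripts. The only Socs3 probe set without it read 392 and 425, a log2 ratio of -0.12, which is no difference beyond the error. Quantile normalization brought the Socs3 ratio to 0.93 and taking out the trend of ratio with brightness brought it to 0.79, below 2-fold in each case. The brightest of 5 equal groups of genes had a median log2 ratio of 0.31 on these arrays and the dimmest -0.24.

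**Figure D2:**
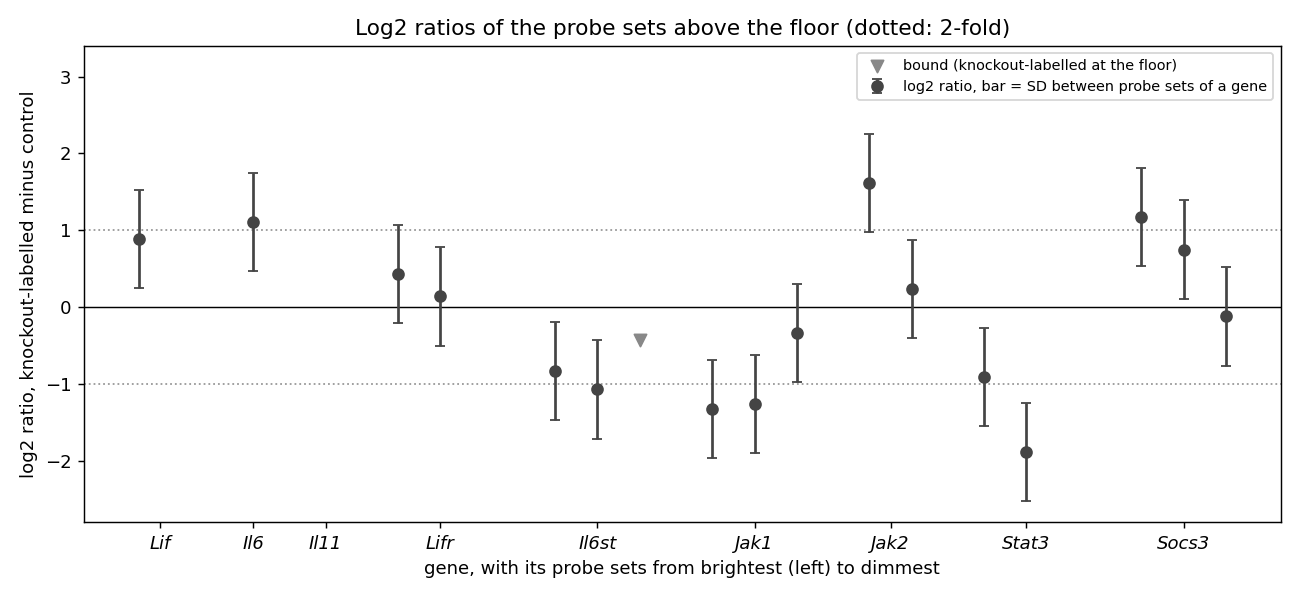
Log2 ratio (knockout-labelled minus control) of the 17 probe sets above the floor on at least 1 array, with bars of ± 0.64 (SD between probe sets of a gene), dotted lines at 2-fold and a triangle for a bound. All 8 points of Il6st, Jak1 and Stat3 lie below 0, the 6 points of Lif, Il6, Lifr and Jak2 lie above 0, and those of Socs3 lie on both sides.

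Of the members' 17 measured probe sets, 8 were higher and 9 lower on the knockout-labelled array. All 8 measured probe sets of Il6st, Jak1 and Stat3 were among the lower ones, 4 of them at least 2-fold, and all 6 of Lif, Il6, Lifr and Jak2 were among the higher ones. These genes were put together after their values were seen, so the direction of each set is fixed by the choice and is only a description. Agreement among the probe sets of a single gene has a background: of 691 genes with 3 measured probe sets, 12.9% were lower at all of them, and of 2096 genes with 2 measured probe sets, 31.1% were lower and 22.4% higher at both. By the brightest probe set, 8 members were above the floor. Of these, 3 (Il6, Jak2, Socs3) were at least 2-fold higher, as were 6.21% of 8593 genes, and 1 (Jak1) was lower by as much, as were 13.0% of genes. By single probe sets, 3 of the members' 17 were at least 2-fold higher and 4 lower by as much, where 6.84% and 13.9% of all measured probe sets were. The count of lower members is thus near the background by genes but above it by probe sets, and probe sets of 1 gene are not independent. The count of 3 higher genes falls to 1 with the median over probe sets. The median log2 ratio was 0.66 for the 8 members and -0.10 for all 8593 genes. The members form no common shift, since 5 were higher and 3 lower by any amount. By the brightest probe set, no member lay between -0.83 (Il6st) and 0.43 (Lifr). Dimmer probe sets of Jak1 (-0.34), Socs3 (-0.12), Lifr (0.14) and Jak2 (0.24) did lie there, as did the bound of Il6st (-0.43).

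The counts over all genes depended on the scaling. Of genes past 2-fold, 32.3% were higher as deposited, against 46.4% with quantile normalization, 63.3% with each array centred on its median and 43.7% once the trend with brightness was taken out. Median centring added 0.28 to every log2 ratio in which no signal was at the floor. The direction of Il6, Lif, Lifr, Jak2, Il6st, Jak1 and Stat3 at the brightest probe set was the same under all of these. Lif passed 2-fold under each of the 3 rescalings (1.14, 1.17 and 1.11 on the log2 scale), and Jak1 stayed past 2-fold in each.

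**Figure D3:**
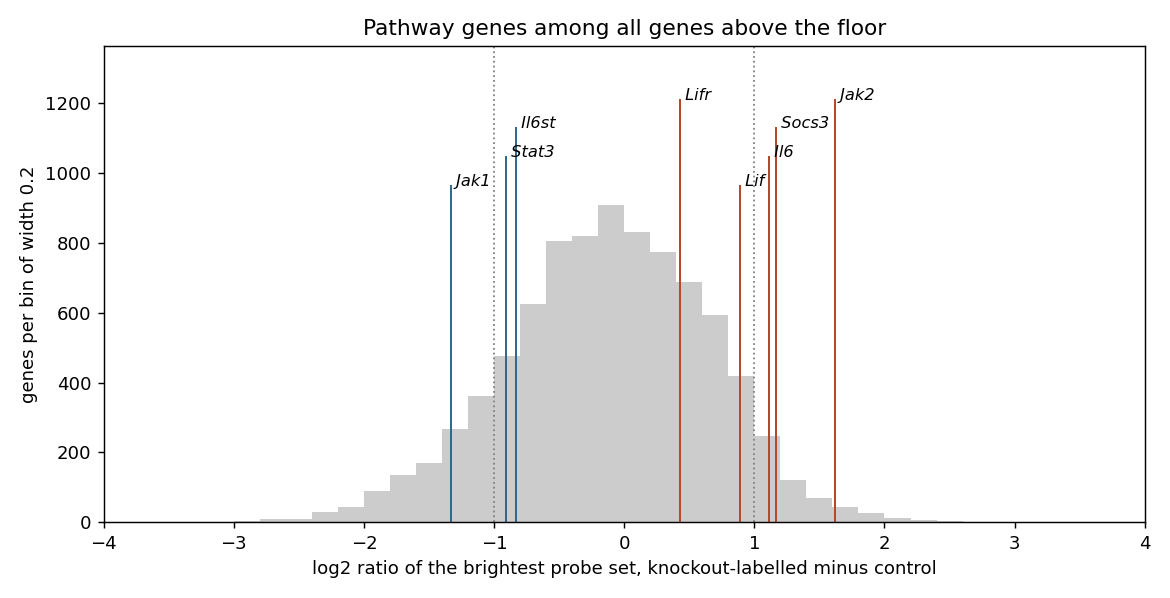
Histogram of the log2 ratio of the brightest probe set over the 8593 genes that cleared the floor on 1 array or both, in bins of 0.2, with the 8 measured members as vertical lines and dotted lines at 2-fold. Jak1, Stat3 and Il6st stand left of the centre (-1.33, -0.91 and -0.83), and Jak2 stands furthest to the right (1.62).

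The RNA of the arrays differed in a way that moves with the labels. The 3′ to 5′ signal ratio of b-actin was 16.0 on the knockout-labelled array and 2.27 on the control array, and that of Gapdh was 7.25 and 1.49. Its part in the differences of the members was not tested, and where their probes lie along the transcripts was not analysed here.

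Of the other genes of the pathway, 79 in 7 lists, 59 were above the floor. Past 2-fold, 3 were higher (5.08%) and 4 lower (6.78%), and the median log2 ratio was -0.09. These shares are near or below those of all genes.

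No other ligand or receptor chain of the family reached 2-fold, among 3 measured of each. Osmr, the gp130 partner for oncostatin M, read 476 on the knockout-labelled array and 269 on the control array (log2 ratio 0.83), and Il6ra, the alpha chain for IL-6, read 83.0 and 76.0 (0.13). The ligand Clcf1 (cardiotrophin-like cytokine) read 80.6 and 49.0 (0.72), and Ctf1 (cardiotrophin 1) read 36.9 and 37.2. Osmr and Clcf1 each rest on 1 measured probe set, with ratios not much above the error of 0.64.

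None of the 5 other JAK and STAT genes above the floor reached 2-fold, with a median log2 ratio of -0.36 and 4 of 5 lower by any amount. Stat6, the mediator of IL-4 signals, read 143 on the knockout-labelled array and 202 on the control array (-0.49), and Stat5b, which mediates prolactin and growth hormone signals, read 75.3 and 125 (-0.73). Tyk2, the remaining kinase above the floor, read 81.7 and 72.8 (0.17). Jak3 and Stat4 were below the floor on both arrays.

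Of 12 other negative regulators above the floor, 2 were past 2-fold, both of them higher (median log2 ratio -0.01). Ptpn2, a phosphatase that removes phosphate from JAK1 and STAT proteins, read 881 on the knockout-labelled array and 369 on the control array (log2 ratio 1.25), and 333 and 204 at its next probe set (0.71). Socs4, a member of the SOCS family, read 48.1 on the knockout-labelled array and 18.4 on the control array, below the floor there, so it was at least 2.44-fold higher, at 1 of its 3 probe sets. Ptpn2 was thus higher at both measured probe sets, while Socs1 and Socs7 were below the floor on both arrays. In the arm that runs from gp130 through the phosphatase SHP2 to MAPK and PI3K, none of 9 measured genes reached 2-fold (median -0.14). SHP2 itself, encoded by Ptpn11, read 545 on the knockout-labelled array and 450.3 on the control array (0.28). The docking protein Gab1 read 244 and 269 (-0.14) at its brightest probe set and -1.01 on the log2 ratio scale at the next.

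Among 20 genes known as STAT3 targets in various tissues, all above the floor, 4 were past 2-fold, all of them lower. Of all genes, 13.0% were lower by as much and 6.21% higher. The list had a median log2 ratio of -0.33. Timp1, an inhibitor of metalloproteinases, read 114 on the knockout-labelled array and 386 on the control array (-1.76), and Birc5, the mitotic survival protein survivin, read 206 and 537 (-1.38). Junb, an AP-1 subunit, read 96.5 and 228 (-1.24), and the growth regulator Myc read 234 and 488 (-1.06). Each of these 4 genes has 1 probe set, and Junb is also counted among the immediate-early genes below. By any amount, 13 of the 20 were lower and 7 higher, where 55.3% of all genes above the floor were lower. Many of these genes also answer other pathways.

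Of 7 measured genes known to act with LIF or IL-11 at implantation, 1 was past 2-fold, on the higher side (median log2 ratio 0.13). Ptgs2, the inducible prostaglandin synthase, read 308 on the knockout-labelled array and 93.2 on the control array (1.72), but 63.8 and 54.5 at its other probe set (0.23). Foxa2, the gland transcription factor on which uterine Lif depends, was named after its value was seen and read 82.8 and 49.3 (0.75).

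**Figure D4:**
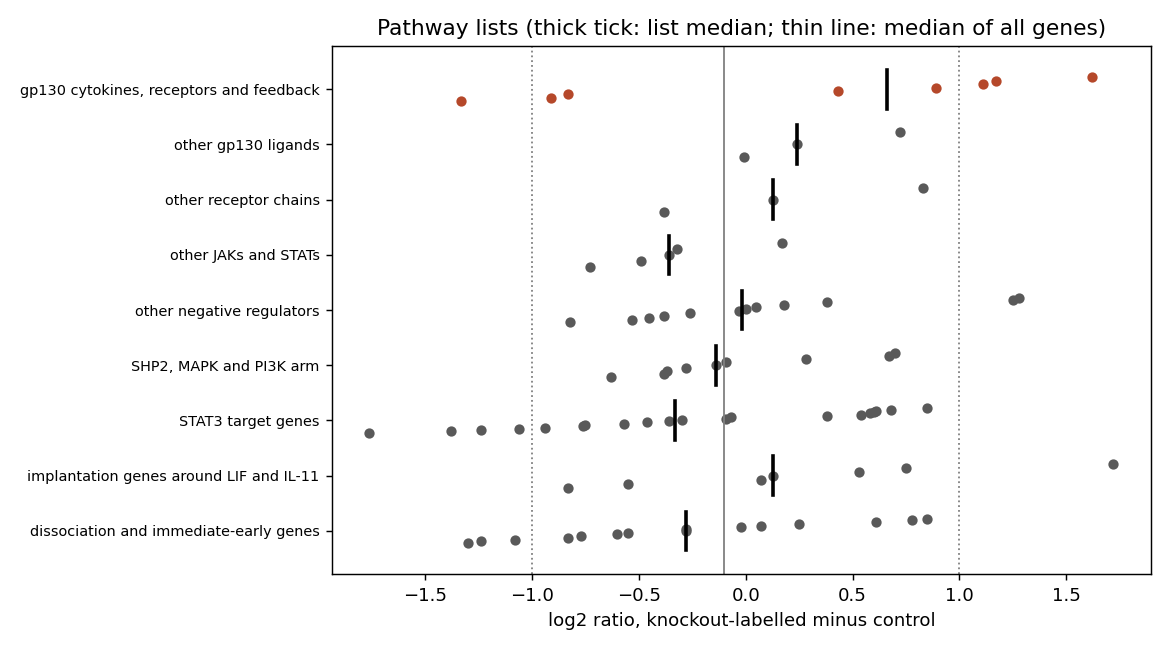
Log2 ratio (knockout-labelled minus control) of the brightest probe set of each gene above the floor, for the 8 measured members (top row) and the lists of related genes, with thick ticks at list medians, a thin line at the median of all genes (-0.10) and dotted lines at 2-fold. The members leave a gap around 0 at their brightest probe sets, in which dimmer probe sets of several of them, not drawn here, lie. The STAT3 target list (median -0.33) has 4 genes left of the 2-fold line.

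Markers of the cell types that a stromal digest can hold were read beside the members, since LIF is a gland product and IL-6 is also made by leukocytes. The background for each count of markers is that 6.21% of all genes were at least 2-fold higher and 13.0% lower. All 16 stromal markers were above the floor. By the brightest probe set, 1 was past 2-fold, on the lower side (median log2 ratio 0.03). Their summed signal was 47542 on the knockout-labelled array and 35199.8 on the control array. The exception was Hoxa11 (-1.85), a homeobox factor needed for decidualization. Dimmer probe sets of Pdgfra (-1.70), Pdgfrb (-2.09) and Col1a1 (-1.26), picked after their values were seen, were also past 2-fold lower. No dimmer probe set of a stromal marker was past 2-fold higher. Epithelial and gland markers were present on both arrays, 16 of 17 above the floor, with 1 higher and 3 lower past 2-fold (median -0.44), with a summed signal of 17563 on the knockout-labelled array and 19638 on the control array. The largest differences were those of Krt18 (-2.20) and Cldn3 (-1.74), whereas Ehf (1.37), Foxa2 (0.75), Krt8 (0.64) and Cdh1 (0.58), chosen after their values were seen, were higher. The summed signal is mostly that of the gland products Prss29, Prss28 and Spink1. The part of gland or epithelial RNA in the higher Lif signal was not tested.

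Myeloid markers, all 13 above the floor, had 2 higher and 6 lower past 2-fold (median -0.93), led by Fcer1g (-2.93) and C1qa (-2.73), with a summed signal of 4445 on the knockout-labelled array and 4871 on the control array. The 2 higher ones, named after their values were seen, were the leukocyte antigen Ptprc (1.74) and C1qb (1.58), and C1qb gave 0.54 and -2.68 at its other probe sets. Lymphocyte and NK cell markers, 9 of 11 above the floor with Cd3e and Cd79a below it, had 1 higher and 3 lower past 2-fold (median -0.44), led by Gzmc (-2.06) and Il2rb (-1.27), and summed to 1236 and 1374. Endothelial markers, all 12 above the floor, had 6 past 2-fold, all lower (median -1.03), led by Pecam1 (-2.34) and Egfl7 (-1.79), and summed to 3054 and 4339. The 10 smooth muscle and pericyte markers had 4 past 2-fold, all lower (median -0.92), led by Myl9 (-1.88) and Des (-1.67), and summed to 12351 and 12851. The part of these cells in the lower Il6st, Jak1 and Stat3 signals was not tested.

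Digestion of tissue induces immediate-early genes, and both Il6 and Socs3 are quickly inducible. Of 15 such genes, all above the floor, 3 were past 2-fold, all lower, namely Zfp36 (-1.30), Junb (-1.24) and Btg2 (-1.08), with a list median of -0.28. Over all genes, 13.0% were lower by as much and 6.21% higher. Their summed signal was 27940.3 on the knockout-labelled array and 25875 on the control array. Chosen after their values were seen, Fos (0.61), Egr1 (0.78) and Jund (0.85) were higher, by less than 2-fold. The part of the response to digestion in the Il6 and Socs3 signals was not tested.

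**Figure D5:**
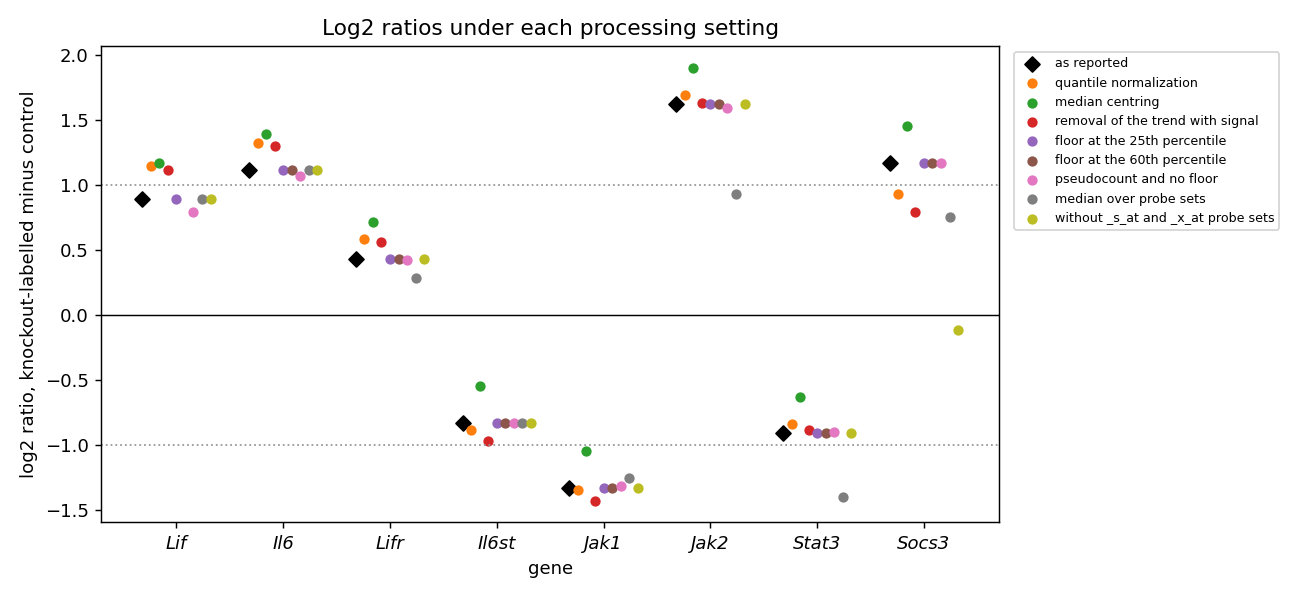
Log2 ratio (knockout-labelled minus control) of each measured member as reported (diamonds) and under 8 other settings of scaling, floor and probe set (circles), with dotted lines at 2-fold. Jak1 (-1.43 to -1.05) and Il6 (1.07 to 1.39) stay past 2-fold in all of them, whereas Socs3 spans -0.12 to 1.45 and Jak2 drops to 0.93 with the median over its probe sets. Il6 and Lif each have 1 measured probe set, so the settings of probe set could not move them. Another floor could not move a member that cleared it on both arrays.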

How the data were processed

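RNA of uterine stromal cells (100 ng of total RNA per array, pooled over 3 animals per genotype) was labelled with the Affymetrix 3' Express kit, per the labels' protocols. Each of 22690 probe sets has 1 deposited MAS5 intensity per array, not on a log scale. The software was Affymetrix Expression Console version 1 with MAS5, per the submitters' processing notes, and no source used here gives the scaling target. Detection calls were not used here.

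Groups were taken from the sample titles. Symbols came from the platform annotation, updated by Entrez identifier through RefSeq genes of GRCm38.p6. Control probe sets (64) and those with several symbols (691) or none (1555) were left out. Signals were raised to the floor of 19.7 and put on a log2 scale, and a gene took its probe set with the highest mean log2 signal, which left 8593 genes measured on 1 array or both and 3800 at the floor. A floored ratio is a bound. The error of 0.64 comes from genes with 2 probe sets above the floor, as the SD of the difference of their ratios over the square root of 2.

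Every member is named at all probe sets. From each pathway list up to 4 genes with the largest ratio past 2-fold are named, or the 2 brightest where none reached it, and from each marker list up to 2. Other genes were named after their values were seen. The members and lists were chosen with earlier results of these data known. The size rule was tested on simulated data. Alternatives were quantile normalization, median centring, removal of a loess trend with a span of 0.4, floors at the 25th and 60th percentiles, a pseudocount of 4.70 in place of the floor, the median over probe sets, omission of _s_at and _x_at probe sets, and rules of 1.5-fold and 3-fold. Python 3.11.15, pandas 2.3.3 and statsmodels 0.14.6 were used.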

Additional observations from a re-analysis of the deposited data

How the results depend on the processing

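Under 8 settings of scaling, floor and probe set, 62 of 63 values of the 8 members with a reported ratio kept its sign. Il11, which has no reported ratio, gained a positive one under 3 of the settings (0.09 to 0.90) and enters the medians there. The exception was Socs3, at -0.12 on the log2 scale without _s_at and _x_at probe sets, where it rests on 1 other probe set. Lif had no value with the floor at the 60th percentile, a signal of 66.3, because it lay below it. For Il6 and Lif, with 1 measured probe set each, the settings of probe set could not change the ratio. With the median over probe sets, 1 member was at least 2-fold higher and 2 were lower, as Jak2 gave 0.93 and Stat3 -1.40. Quantile normalization and the loess correction kept the count of 3 higher members but with Lif in place of Socs3, and median centring gave 4. At 3-fold, 1 member was higher and 0 were lower, and at 1.5-fold 4 were higher and 3 lower. The median of the members lay between 0.16 and 0.89.

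Over all genes, 1154 were at least 2-fold higher and 669 lower after median centring, against 534 and 1119 as reported, and 601 of 6476 genes were lower with the higher floor. With the median over probe sets, 364 were at least 2-fold higher and 1100 lower. At 1.5-fold 1592 were higher and 2268 lower, and at 3-fold 106 and 330. No paired analysis was possible because each group has 1 array. Signals near the floor limit what can be said of Lif and Il11.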

Other observations

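Several STAT3 target genes gave opposite directions at different probe sets, and these were picked after their values were seen. Pim3, a survival kinase, read 1302 on the knockout-labelled array and 898 on the control array at its brightest probe set (log2 ratio 0.54), but 67.8 and 206 at the next (-1.61). Its relative Pim1 read 758 and 583 (0.38), but 31.0 and 87.3 at the next (-1.50). Mcl1, a survival protein of the BCL2 family, was higher at 4 of its probe sets, with log2 ratios of 0.85, 0.48, 0.86 and 0.91, and lower at the 2 dimmest (-0.74 and -0.22). Cebpb, a decidual transcription factor, was lower at both of its probe sets but by different amounts (-0.36 and -2.41), and Cebpd gave -0.46 and 1.08. Of 2096 genes with 2 measured probe sets, as Pim1, Pim3 and Cebpd have, 46.5% had no common direction.

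Ptpn6, which encodes the leukocyte phosphatase SHP1, read 127 on each array at its brightest probe set and 47.5 on the knockout-labelled array and 118 on the control array at its other (-1.32). The PIAS genes, which restrain STAT proteins, were within 2-fold at each probe set above the floor on both arrays. Pias1 was higher at its 3 probe sets (0.05, 0.60 and 0.88), Pias3 was lower (-0.82 at its brightest), and Pias2 gave -0.45 and 0.79. Socs2 (0.18 and 0.06) and Socs5 (0.38 and 0.38) differed by less than the error of 0.64 at both of their probe sets.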
